A study of Homo sapiens with 5 samples.

Results

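The summits described here are the weak calls of the KAT7 list from control cells, which were chosen by their score alone. A summit is the highest point of a ChIP-seq peak, and its score in the deposited list is a -log10 p or q value as the peak caller MACS2 writes it. All summits of the control siRNA KAT7 list scoring below 3 were taken, which gave 87779 of the 122439 summits of that list and of the 209263 summits of the whole series. The cells were HCT116, a human colorectal cancer line, collected 48 h after transfection with a control siRNA or an siRNA that targets ENO1-IT1, a long noncoding transcript whose name places it in an intron of the enolase gene ENO1. Chromatin was precipitated with antibodies to KAT7 or to histone H3 acetylated at lysine 27 (H3K27ac) in both conditions. A library of input DNA, whose siRNA is not given, completed the set. Each of the 5 groups held 1 library, so no difference below carries a test against replicate error, and all intervals cover counting error only. The siRNA groups rest on the sample titles, since every peak of the control and the knockdown lists alike is named with a code that starts with KO.

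KAT7, also called HBO1, is a histone acetyltransferase of the MYST family. It works in complexes with scaffold proteins of the BRPF and JADE families and acetylates histones H3 and H4, and it is known for its part in transcription and in the licensing of replication origins. H3K27ac marks active promoters and enhancers and serves here as a map of active stretches of the genome. In ChIP-seq, fragments that were not bound by the antibody are also sequenced and lie across the whole genome. MACS2 sets each pile-up of reads against an expected local rate, which never falls below a genome-wide rate.

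Low scores made up most of the control KAT7 list and little of the others. Summits scoring below 3 were 71.7% of the control KAT7 list. The corresponding shares were 4.73% for knockdown KAT7 (1164 of 24611), 15.9% for control H3K27ac (4689 of 29429) and 7.95% for knockdown H3K27ac (2530 of 31839). None of the 945 input summits scored below 3, the lowest being 5.24. Scores of different lists are not on a common scale, because a score grows with sequencing depth, and the depth of the libraries is unknown.

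The 87779 weak summits carried only 44 different scores. The most frequent, 2.68, belonged to 52298 summits, the next, 1.31, to 26261 and the third, 2.43438, to 6233. These 3 values covered 96.6% of the weak summits. Another 14 values between 2.217 and 2.645 followed each other in regular steps of 0.0294 to 0.0361, and 2400 summits (2.73%) held one of them. Apart from the 3 frequent values, the steps were taken as values from 2.2 to under 2.68 held by at least 30 summits. This rule sets their number and their lower end, and values outside it, such as 2.188 with 1 summit, were counted with the rest. The number of summits on these steps grew with the score, from 33 at the lowest to 491 at the highest, with 1 dip from 95 to 94 on the way. The remaining 27 values were held by 587 summits. Of these, 300 scored 1.92 and 199 scored 2.16. Hardly any summit lay close to the limit of 3. Only 29 members scored above 2.68, the highest member score was 2.99 (4 summits), and the next score outside, 3.02, was held by 1 summit. A limit of 4 would add 2869 summits, while a limit of 5 would give 106299 in all.

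**Figure D1:**
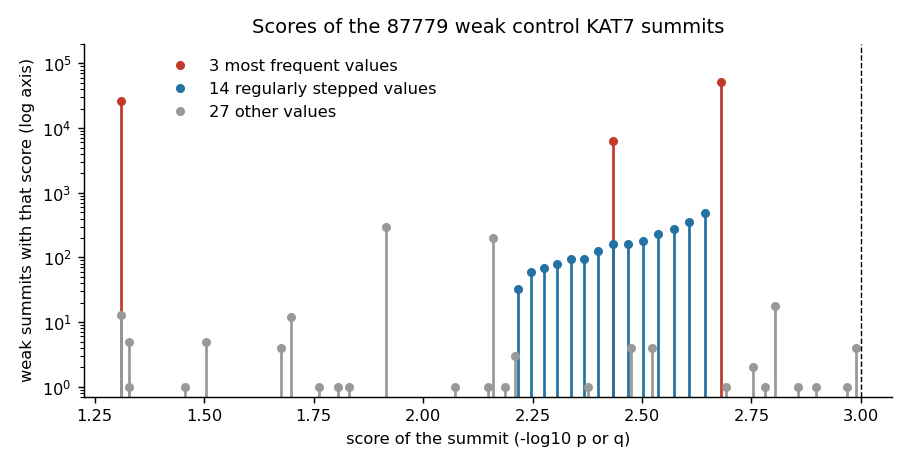
Number of weak control KAT7 summits (vertical axis, log scale) at each of the 44 scores they carry (horizontal axis). The values 1.31, 2.43 and 2.68 tower over the rest, the 14 regularly stepped values fill the range just under 2.68, and the dashed line marks the limit of 3.

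The weak summits were spread over all chromosomes at similar density. On chromosomes 1 to 22 there were between 24.0 weak summits per Mb (chromosome 16) and 34.4 per Mb (chromosome 13), a ratio of 1.44, with a median of 29.1. Density was taken over the stretch from the first to the last summit of any list on a chromosome, with empty stretches inside it included. Over the same chromosomes, knockdown KAT7 summits ran from 6.57 per Mb (chromosome 4) to 14.8 per Mb (chromosome 19), a ratio of 2.25. Control H3K27ac summits ran from 4.95 per Mb (chromosome 18) to 32.6 per Mb (chromosome 19), a ratio of 6.58. Chromosome X held 28.2 weak summits per Mb, within the range of the others. Chromosome Y held 9.62 per Mb, with 571 weak summits in 59.3 Mb, of which a stretch of 30283708 bp from 28819139 to 59102846 (hg19) held none.

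Weak summits tended to be denser on gene-poor than on gene-rich chromosomes, with exceptions. The 3 highest densities were on chromosome 13 (34.4 per Mb, 3.52 protein-coding genes per Mb), chromosome 4 (33.8 per Mb, 4.03 genes) and chromosome 6 (32.1 per Mb, 6.14 genes). The 3 lowest among chromosomes 1 to 22 and X were on chromosome 16 (24.0 per Mb, 9.47 genes), chromosome 22 (24.5 per Mb, 12.8 genes) and chromosome 17 (24.7 per Mb, 14.4 genes). Chromosome 19, the richest in genes with 24.6 per Mb, had 27.9 weak summits per Mb and so lay inside the range. Across these 23 chromosomes the Spearman rho between weak summits and protein-coding genes per Mb was -0.63. For knockdown KAT7 summits it was 0.70, and for the control KAT7 summits scoring 3 or more it was -0.08. These are descriptions of single libraries, and chromosomes share their library and differ in base composition, which was not measured here. Densities also include long stretches without weak summits, such as 21255624 bp on chromosome 1, 18557776 bp on chromosome 9 and 11347644 bp on chromosome 16. Such stretches lower the density of their chromosomes, and the ranking and the rho were not recomputed without them. Gene numbers are RefSeq protein-coding genes per chromosome of GRCh38.p14, used without their coordinates.

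**Figure D2:**
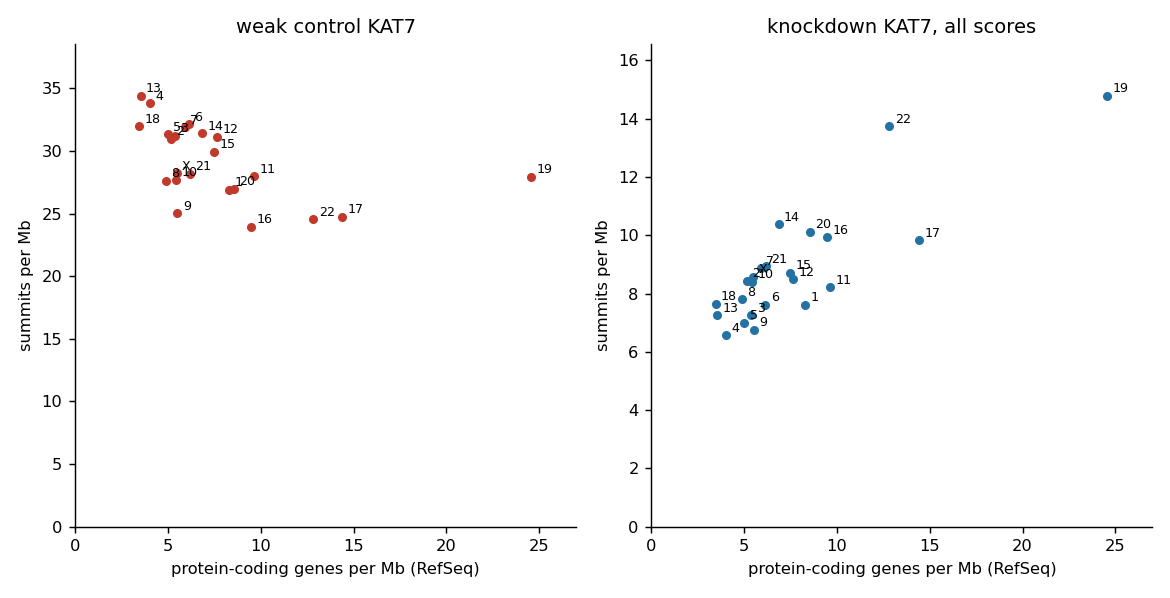
Summits per Mb against protein-coding genes per Mb for chromosomes 1 to 22 and X, each point 1 chromosome with its name, for weak control KAT7 summits (left) and knockdown KAT7 summits (right). The weak summits lie between 24.0 and 34.4 per Mb and tend downward with gene density, whereas the knockdown summits reach 14.8 per Mb on gene-rich chromosome 19.

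A slope of the same sign was seen across windows of 1 Mb pooled over chromosomes 1 to 22 and X, with H3K27ac serving to tell active from inactive stretches. Differences between chromosomes enter this slope. The classes of windows were formed after leaving out 49 windows that touched a stretch of over 300 kb with no summit in any list, such as a centromere. The 406 windows with no control H3K27ac summit held 35.3 ± 8.38 weak summits (mean ± SD over windows). The 857 windows with 1 to 4 H3K27ac summits held 31.4 ± 8.03 and the 573 windows with 10 to 19 held 29.2 ± 7.93. The 131 windows with 40 or more held 28.1 ± 6.92. In these filtered windows the fall from the first to the last of these means was about as large as the SD within a class. Summits of the same list scoring 3 or more went the other way, from 11.3 ± 3.90 to 14.5 ± 4.97, and so did knockdown KAT7 summits, from 5.90 ± 2.68 to 13.5 ± 7.13. Weak summits were among the lists used to find empty stretches, so the filter tended to remove windows poor in weak summits. With the 49 windows kept in, the 436 windows with no control H3K27ac summit held 33.3 ± 11.2 weak summits. Those with 40 or more still held 28.1 ± 6.92, and the fall was then smaller than the SD of either class. Over all 2865 windows the Spearman rho between weak and control H3K27ac summits was -0.22. It was 0.20 for the control KAT7 summits scoring 3 or more and 0.37 for knockdown KAT7. Windows are not independent replicates, and no p-value is given. The sign of the weak summits' rho was the same in windows of 100 kb, but its size was near 0, at -0.0152.

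**Figure D3:**
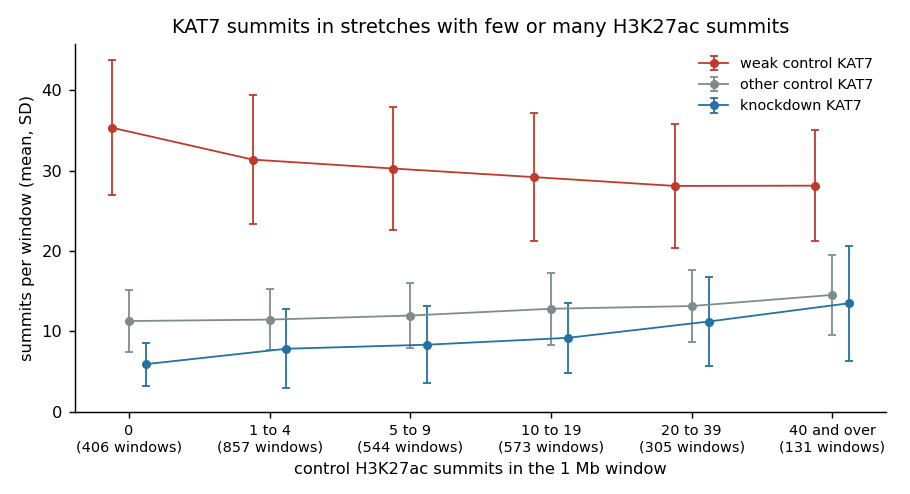
KAT7 summits per 1 Mb window (mean with SD over windows) in 6 classes of windows by their number of control H3K27ac summits. Windows that touched an empty stretch of over 300 kb are left out. Weak control summits decline from 35.3 to 28.1 per window, while the other control summits and the knockdown summits rise to 14.5 and 13.5.

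Weak summits filled nearly every window that was counted, in like numbers. The number per 1 Mb window was 30.4 ± 8.72 (mean ± SD, 2865 windows), and its 5th and 95th percentiles were 16 and 45. Only 4 windows (0.140%) held no weak summit, against 436 (15.2%) without a control H3K27ac summit. Windows without a summit of any list had been left out. Since 87779 of the 209263 listed summits are weak ones, this contrast is partly built in. The ratio of variance to mean, which is 1 for a count that varies only as a Poisson count does, was 2.50 for weak summits. It was 3.05 for knockdown KAT7 and 17.5 for control H3K27ac. This ratio depends on the number of summits, so the variation beyond Poisson was also expressed as a share of the squared mean. It was 0.0495 for weak summits and 0.0492 for the other control KAT7 summits, compared with 0.243 for knockdown KAT7 and 1.62 for control H3K27ac. Without the 49 windows next to empty stretches the ratio for weak summits was 2.18.

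In the ratio of its median to its mean, the spacing of the weak summits was near that of other KAT7 summits and unlike that of H3K27ac. The median distance between weak neighbours was 21566 bp, with quartiles at 8704 and 44253 bp, and the median was 0.629 of the mean. This ratio was 0.625 for the stronger summits of the same list and 0.574 for knockdown KAT7. For control H3K27ac the median of 12812 bp was 0.126 of the mean, since 22.4% of its neighbours lay under 1 kb apart. Of the weak neighbours, 3.21% (2818 pairs) lay under 1 kb apart, as did 1.54% of the stronger control and 3.59% of the knockdown KAT7 neighbours. These shares depend on how dense a list is, and the mean distances were 34274, 86814 and 122339 bp. Knockdown KAT7 thus had the largest share of close neighbours of these 3 despite the widest mean spacing, and in this it was unlike the weak summits. The 2 closest were 163 bp apart, and the smallest distance from a weak to a stronger control KAT7 summit was 161 bp. Beyond that, weak summits were found beside stronger ones at 2.90 per bp between 201 and 500 bp and at 2.08 per bp between 2001 and 5000 bp. Past 200 bp, stronger control summits were thus not surrounded by a zone poor in weak calls.

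Tight groups of weak summits were few. Among stretches of 10 kb starting at a weak summit, 63113 held that summit alone, 34 held 5, 5 held 6 and 1 held 7. The group of 7 lay on chromosome 8 from 144990792 to 144998201, a stretch that also held 1 control and 2 knockdown H3K27ac summits. The 4 next groups, of 6 summits each, were on chromosome 8 from 104570417 to 104577150, chromosome 1 from 171541296 to 171548755, chromosome 10 from 59351587 to 59360986 and chromosome 5 from 89779578 to 89789498. None of these 4 held a summit of any other list or a stronger control KAT7 summit.

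The windows with the most and those with the fewest weak summits both varied widely in H3K27ac. Among windows that held a summit of every immunoprecipitated list, the highest number was 59, on chromosome 10 from 8000001 to 9000000, with 1 control H3K27ac summit. The next were on chromosome 2 from 61000001 (58 weak summits, 16 control H3K27ac), chromosome 3 from 95000001 (57 and 1), chromosome 1 from 189000001 (55 and 1) and chromosome 6 from 27000001 (55 and 60). The lowest numbers were 1 on chromosome 21 from 11000001, 2 on chromosome 1 from 144000001, 3 on chromosome 2 from 91000001, 3 on chromosome 21 from 9000001 and 4 in the first window of chromosome 1. In the same order, these windows held 2, 5, 3, 1 and 31 control H3K27ac summits, and the last also held 7 input summits.

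Several long stretches lacked weak summits. After that on chromosome Y, the longest were on chromosome 1 from 121471583 to 142727206, chromosome 9 from 47285550 to 65843325, chromosome 16 from 35123483 to 46471126 and chromosome 4 from 48966857 to 52766307. The stretch on chromosome 16 held 40 input summits and that on chromosome 4 held 66, out of 945 in the whole input list. Shorter stretches lacked weak summits while H3K27ac was listed in them. On chromosome 9 from 69155449 to 69926908, 771460 bp without a weak summit held 12 control and 15 knockdown H3K27ac summits and 4 stronger control KAT7 summits. On chromosome 1 from 144393479 to 145136125 there were 7 control and 10 knockdown H3K27ac summits. On chromosome 8 from 134069789 to 134592581 there were 10 and 11, with no input summit. The most isolated weak summit lay at 155901 on chromosome 1, 581005 bp from the next weak summit and 145675 bp from a stronger one.

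Most weak summits lay far from every summit of the other lists. Of the 87779, 82197 (93.6%) had no summit of knockdown KAT7 or of H3K27ac in either condition within 500 bp. Taken singly, knockdown KAT7, control H3K27ac and knockdown H3K27ac had a summit within 500 bp of 4.67%, 2.54% and 2.78% of weak summits. Over control KAT7 summits of all scores these shares were 6.62%, 3.67% and 4.04%. The median distance was 43728 bp to the nearest knockdown KAT7 summit, 101873 bp to control H3K27ac and 83107 bp to knockdown H3K27ac. Over control KAT7 summits of all scores these medians were somewhat shorter, at 42101, 93167 and 76081 bp. That set is itself 71.7% weak summits, so its medians had to be similar. For control KAT7 summits scoring 3 or more, the medians were 37876.5, 73525 and 60154 bp in the same order. At scores of 20 and over they were 7869, 19105 and 15321 bp. Summits scoring 3 or more thus also lay mostly far off, but less far than the weak ones. The lists searched differ in length, so medians to different lists are not to be compared with each other.

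A small share of weak summits coincided with KAT7 after knockdown. A knockdown KAT7 summit lay within 500 bp of 4101 weak summits, 4.67% (95% interval 4.53 to 4.81%). Over control KAT7 summits of all scores the share was 6.62%, and for those scoring 3 or more it was 11.6% (11.2 to 11.9%). For scale, 0.803% of all positions between the first and last summits of the chromosomes lay within 500 bp of a knockdown KAT7 summit. The weak share was 5.82 times this value. Shares rose with the control score, through 8.53% at scores of 3 to 5 and 20% (524 of 2620) at 10 to 20 to 43.3% at 20 and over. The weak summits concerned sat almost on top of their counterparts, with a median distance of 13 bp, and 2961 of the 4101 (72.2%) were within 50 bp. Within 50 bp there were 58.1 weak summits per bp of distance, against 1.27 per bp between 1001 and 2000 bp and 1.21 per bp between 2001 and 5000 bp.

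From the side of the knockdown list, weak control summits were about as common partners as stronger ones, but they were also more numerous. There were 87779 weak and 34660 stronger control summits, of which 4.67% and 11.6% had a knockdown KAT7 summit within 500 bp. Of the 24611 knockdown KAT7 summits, 4121 (16.7%) had a weak control summit within 500 bp, and 3880 (15.8%) had a weak one but no stronger one. A stronger control summit was near 4045 (16.4%), and 16686 (67.8%) had no control KAT7 summit. The median knockdown score was 9.12 for those with weak partners only, 19.1 for those with stronger partners and 7.29 for those with none. Among the 3880 with weak partners only, 884 scored 20 or more after knockdown. Knockdown H3K27ac was within 500 bp of 29.1% of the 3880, of 53.9% of those with stronger partners and of 8.17% of those with none. In score and in H3K27ac the knockdown summits with weak partners thus lay between the other groups.

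Weak summits were also found on H3K27ac, less closely. A control H3K27ac summit lay within 500 bp of 2229 weak summits, 2.54% (2.44 to 2.65%), against 3.67% over all control KAT7 summits and 0.903% of positions. For knockdown H3K27ac the numbers were 2436, 2.78% (2.67 to 2.89%), against 4.04% over all control KAT7 summits and 1.01% of positions. The share near control H3K27ac was 6.53% (6.27 to 6.79%) for the control KAT7 summits scoring 3 or more. The median distance among the 2229 was 138 bp, and 28.3% of them were within 50 bp, compared with 72.2% for knockdown KAT7. For control KAT7 summits scoring 20 or more, the corresponding median distance to control H3K27ac was 9.5 bp. Between 101 and 200 bp there were still 5.30 weak summits per bp around control H3K27ac, against 3.21 around knockdown KAT7. Within 50 bp of control H3K27ac there were 12.4 weak summits per bp. Weak calls near acetylated sites were therefore densest at the H3K27ac summit but reached further over its flanks than the strong ones.

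**Figure D4:**
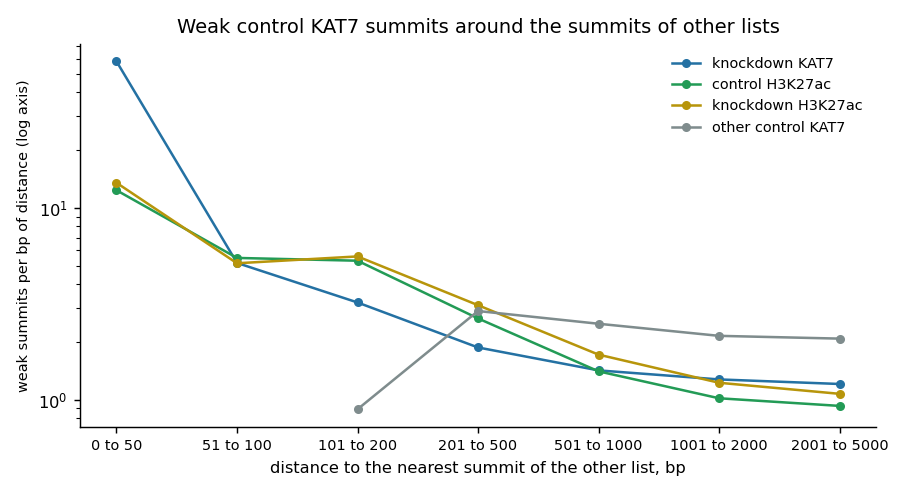
Weak control KAT7 summits per bp of distance (log scale) in 7 classes of distance to the nearest summit of each other list, and to stronger summits of the same list. The knockdown KAT7 line drops from 58.1 within 50 bp to 1.21 beyond 2000 bp, the H3K27ac lines start lower and fall more slowly, and stronger control summits have no weak summit within 100 bp.

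The weak summits on both marks overlapped. Of the 2961 weak summits within 50 bp of a knockdown KAT7 summit, 24.8% (23.2 to 26.4%) had control H3K27ac within 500 bp, against 1.76% (1.68 to 1.85%) of the remaining 84818. Read the other way, knockdown KAT7 was near 51.7% (49.6 to 53.8%) of the 2229 weak summits with control H3K27ac and near 3.45% (3.33 to 3.57%) of the 85550 without. All 3 other immunoprecipitated lists had a summit within 500 bp of 895 weak summits (1.02%), and within 50 bp of 223. Knockdown KAT7 without H3K27ac of either condition was found at 2581 weak summits (2.94%). H3K27ac of either condition without knockdown KAT7 was found at 1481 (1.69%). Both shares differed between chromosomes. On chromosome 19, 9.76% of weak summits were near knockdown KAT7 and 8.85% near control H3K27ac, while on chromosome 13 these shares were 3.39% and 1.27%. The lists searched differed in the same direction, with 14.8 and 7.26 knockdown KAT7 summits per Mb and 32.6 and 5.54 control H3K27ac summits per Mb on these 2 chromosomes. On chromosome 11, with 9.65 genes per Mb, the shares of 4.80% and 2.41% were near the medians of chromosomes 1 to 22, 4.70% and 2.53%.

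Input DNA was rarely listed near weak summits. Only 19 of the 87779 lay within 1000 bp of an input summit, 0.0216% (0.0130 to 0.0338%), against 0.0359% over all control KAT7 summits, 0.0721% (0.0467 to 0.106%) for those scoring 3 or more and 0.0519% of positions. The weak share was thus below that of positions taken at large. No source used here says whether the input library served as the control in peak calling, and the part of peak calling in this low share was not tested. The weak summits closest to all 4 other lists had partners with higher scores there, though scores of different lists are not on a common scale. The first, at 142723820 on chromosome 8 with a score of 1.46, lay 61 bp from a knockdown KAT7 summit scoring 18.8, 76 bp from control H3K27ac (score 8.55), 34 bp from knockdown H3K27ac (5.96) and 72 bp from input (9.57). The second, at 62324863 on chromosome 20 with a score of 1.31, lay 8 bp from a knockdown KAT7 summit scoring 31.2 and 57 bp from input. The third, at 150606936 on chromosome 7, scored 2.99, the highest score of a member, and lay 25 bp from a knockdown KAT7 summit scoring 43.3. The fourth and the fifth lay at 64794789 on chromosome 17 and 100394202 on chromosome 14.

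The frequent and the rare scores differed in their company. Of the 84792 weak summits with the 3 most frequent scores, 4.59% (4.45 to 4.73%) were near knockdown KAT7 and 2.44% (2.34 to 2.55%) near control H3K27ac. Those on the 14 regular steps had shares of 4.71% (3.90 to 5.63%) and 4.08% (3.33 to 4.95%). The 587 with one of the 27 remaining scores had shares of 16.7% (13.8 to 19.96%) and 10.4% (8.04 to 13.1%). At the scores 1.92 and 2.16, which most of them held, the shares near knockdown KAT7 were 13.3% and 15.6%. At the scores 1.31, 2.43 and 2.68 the shares near knockdown KAT7 were 4.28%, 4.35% and 4.77%, and those near control H3K27ac were 2.70%, 2.44% and 2.31%. Among the frequent scores the first share thus rose and the second fell with the score, both by small amounts that were not tested.

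The scores on the regular steps took a larger share of the weak summits in 6 long stretches of the genome, given below, than elsewhere. These stretches held 1185 of the 2400 summits on the steps, and 1214 lay in the rest of chromosomes 1 to 22. Chromosomes 8, 10, 16 and 17 together held 13.6% of the weak summits and 53.3% of those on the steps (1278 of 2400). In windows of 5 Mb with at least 20 weak summits, the share on the steps was 10% or more in 38 of 590 windows and had a median of 1.11% in the others. These 38 windows formed 6 unbroken stretches. They ran on chromosome 8 from 70000001 to its last summit at 146278146 (28.2% of 1989 weak summits on the steps), on chromosome 10 from 100000001 to 130000000 (33.5% of 639) and on chromosome 17 from 40000001 to its last summit at 81195029 (31.1% of 972). The others were on chromosome 16 from 80000001 to 90000000 (27.2% of 206), chromosome 21 from 35000001 to 48119819 (12.4% of 330) and chromosome 9 from 40000001 to 50000000 (17.1% of only 70). In the rest of chromosomes 8, 10 and 17 the share on the steps was 1.61%, 1.54% and 1.55%, and in the rest of chromosomes 9 and 16 it was 1.13% and 2.51%. The contrast was weakest on chromosome 21, where the rest had 4.99%. The stretches were picked by these shares, which are therefore a description. HCT116 is known from cytogenetics to carry extra material of the long arms of chromosomes 8, 10, 16 and 17. The stretches on chromosomes 9 and 21 are not on these arms. Copy number was not measured in these data, and a link between it and the scores was not tested.

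The density of weak summits was not raised in these stretches. It was 26.1 per Mb in the chromosome 8 stretch and 29.3 in the rest of chromosome 8, 21.3 and 29.5 on chromosome 10, and 23.6 and 25.9 on chromosome 17. Over all 6 stretches it was 23.3 per Mb, against 30.1 in the rest of chromosomes 1 to 22. Control H3K27ac was denser in the stretches, at 15.6 against 9.88 per Mb. The mix of scores was another. The value 2.68 was held by 27.1% of the weak summits in the stretches and by 60.5% in the rest, whereas 1.31 was held by 31.1% and 30.1%.

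Chromosomes X and Y stood at the opposite end. The third most frequent score, 2.43438, was held by 7.47% (7.29 to 7.65%) of the weak summits on chromosomes 1 to 22, from 6.18% on chromosome 18 to 11.0% on chromosome 21. On chromosome X it was held by 43 of 4377 (0.982%, 0.712 to 1.32%), and on chromosome Y by 2 of 571 (0.350%, 0.0424 to 1.26%). No weak summit of chromosome X was on the regular steps, 0 of 4377, which allows a share of up to 0.0685% when 3 counts are taken as the limit and 0.0842% by the exact interval. On chromosome Y, 1 weak summit was on the steps. The value 2.68 was held by 72.8% of the weak summits of chromosome X and 73.9% of those of Y. HCT116 carries a single X chromosome, as general knowledge of the line has it, and a link to the scores was not tested.

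The regional order was also looked for in the other summits, which had no part in choosing the stretches. In each list, summits at the list's most frequent score were counted among those up to 0.8 below it. Among weak summits the share at that score, 2.68, was 39.6% (37.8 to 41.4%) in the 6 stretches, 86.6% (86.3 to 86.9%) in the rest of chromosomes 1 to 22 and 98.6% (98.1 to 98.96%) on chromosome X. Among control KAT7 summits scoring 3 or more, where the most frequent score was 4.28, the shares were 17.5% (14.9 to 20.4%), 64.2% (63.4 to 65.0%) and 92.8% (90.9 to 94.3%). In the knockdown KAT7 list, at 5.83, they were 15.0% (10.6 to 20.4%) of 220 summits, 63.2% (61.8 to 64.7%) of 4270 and 95.7% (92.7 to 97.7%) of 299. For control H3K27ac, at 2.93, they were 9.80% (6.45 to 14.1%), 37.9% (36.1 to 39.7%) and 71.6% (62.1 to 79.8%). For knockdown H3K27ac, at 4.13, they were 4.92% (2.65 to 8.27%), 26.5% (24.96 to 28.2%) and 63.0% (53.1 to 72.1%). The share among weak summits restates how the stretches were picked. In the other 4 sets of summits, the intervals of the 3 regions did not overlap, with the stretches pooled. Single stretches with few summits could differ, such as that on chromosome 21 with 28.6% of 21 control H3K27ac summits against 18.2% of 11 in the rest of the chromosome. On chromosome 9, knockdown H3K27ac had 33.3% of 6 against 30.7% of 137. The 4 immunoprecipitated lists are not independent of each other if they were called against the same input reads, on which the sources used here are silent.

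**Figure D5:**
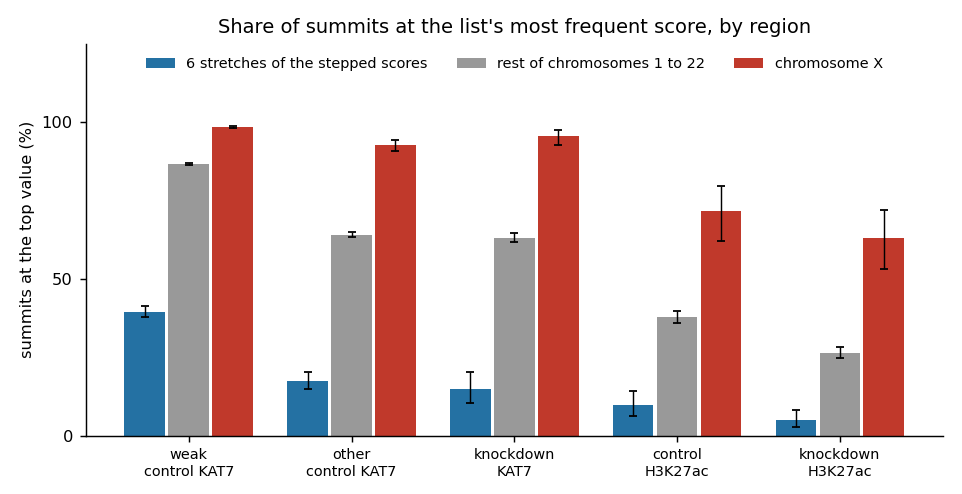
Share of summits at the most frequent score of their list, among summits scoring up to 0.8 below it, with exact 95% intervals, in the 6 stretches of the stepped scores, the rest of chromosomes 1 to 22 and chromosome X. In each list the pooled stretches are lowest and chromosome X is highest, from 39.6% to 98.6% for the weak control KAT7 summits.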

How the data were processed

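ChIP-seq summit lists of 5 HCT116 libraries were used, 1 per group, grouped by sample title. The submitters' processing notes name Bowtie, MACS2 and the build hg19. Per the file contents, peak names bear a duplicate-removal tag. Versions, options and the calling control were not found in the sources used here. Each deposited score is a -log10 value of p or of q, without a statement of which. The lowest immunoprecipitation score was just over 1.30, which is -log10 of 0.05. No read counts are listed, so depth is unknown.

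Positions are hg19 and count from 1. Summits scoring below 3 in the control KAT7 list were the members. Distances were taken to the nearest summit on the same chromosome, with 500 bp counting as near, and 1000 bp for input. Windows of 1 Mb were whole windows of chromosomes 1 to 22 and X holding a summit of any list. Shares carry exact Clopper-Pearson 95% intervals. Python 3.11.15, numpy 2.4.6, pandas 2.3.3, SciPy 1.17.1 and matplotlib 3.10.9 were used, and the distance and window code was tested on simulated lists. Regions named are the 5 at the extreme of each kind (windows, gaps, groups in 10 kb, isolated summits, summits closest to all lists). No hg19 annotation or genome was used, so summits were assigned to no gene and no sequence is shown. The members, lists and rules were chosen with earlier results of these data known. The classes of score, the stretches of stepped scores and the shares at the most frequent score were chosen after their values were seen. Alternatives tried were other score limits, distances and windows, and removal of summits near input.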

Additional observations from a re-analysis of the deposited data

How the results depend on the processing

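In all, 6 results (the number of weak summits, their shares near knockdown KAT7 and near control H3K27ac, the variance to mean ratio, the rho with H3K27ac per window, and the median spacing) were recomputed under 35 alternatives. Only the rho could change sign, and it kept its sign under each of its alternatives. Of the 35 alternatives, 19 stayed within the main interval or within 1.5 times the main value, and 16 moved outside. With a score limit of 2, which keeps 26605 summits, the shares were 4.42% near knockdown KAT7 and 2.83% near control H3K27ac, the variance to mean ratio was 1.60 and the median spacing 70435 bp, since fewer summits were counted. With a limit of 5 the shares were 5.34% and 2.81%. The share near knockdown KAT7 was 3.67% at 100 bp, 5.48% at 1000 bp and 6.93% at 2000 bp, and that near control H3K27ac was 1.03%, 3.34% and 4.50%. In windows of 100 kb the variance to mean ratio was 1.18 and the rho -0.0152, and in windows of 5 Mb the ratio was 8.76, where the mean is larger by construction. Leaving out windows next to empty stretches of over 300 kb, an alternative chosen after seeing the data, gave a ratio of 2.18 and a rho of -0.26. Unknown depth limits every score, and 1 library per group limits every comparison to these libraries.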
